A study of Homo sapiens with 8 samples.

Results

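CAMSAP1, MTCL2, MACF1 and MYO3A are 4 genes of the microtubule, actin and myosin cytoskeleton at which both peak lists of NKRF after knockdown of the long non-coding RNA Uc003xsl.1 hold a peak. They were picked by that recurrence from 20056 protein-coding genes, so the presence of these peaks is a description and was not tested. NKRF, the NF-kB repressing factor, was profiled by ChIP-seq, in which DNA fragments bound by a protein are immunoprecipitated, sequenced and compared with input DNA. The cells were MDA-MB-231-P3, a strongly metastatic subline of a triple-negative breast cancer line. They carried either a control siRNA (2 libraries) or an siRNA against Uc003xsl.1 (2 libraries, si-Uc003xsl.1); the labels' protocol names lipid transfection, and no further genotype or time is given. The series title describes the RNA as a decoy of NKRF, so the comparison asks where NKRF was found with and without the siRNA. All libraries come from this single line, and the labels do not say whether replicates were separate cultures.

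CAMSAP1 encodes a protein that binds and protects the minus ends of microtubules that are not anchored at the centrosome. MTCL2 (also SOGA1) encodes a protein that crosslinks microtubules at the Golgi, and MACF1 encodes a giant spectraplakin that ties microtubules to actin filaments. MYO3A encodes a class III myosin, an actin-based motor with a kinase domain that is known from the sensory hair cells of the inner ear. NKRF was first described as a repressor at promoters of NF-kB target genes, and none of these 4 genes belongs to that classical set.

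A peak list gives only places where the caller found more tags (sequenced fragment ends) than in input. Control replicate 1 and the si-Uc003xsl.1 libraries were called with the same program and threshold (p of 1e-04), control replicate 2 with a later version, another threshold and longer tags. The 4 lists held 7444, 902, 7577 and 4463 peaks from 19335431, 8250475, 18890698 and 11366267 filtered NKRF tags, the controls given first and each group in the order of its replicate numbers. Control replicate 1 stood apart in that 5067 of its peaks had the minimum of 6 tags and only 112 had 10 or more, and in that the caller's false discovery rate was 100% at each peak. Its depth was close to that of si-Uc003xsl.1 replicate 1, where 2423 peaks had 10 or more tags. Whether that library was enriched for NKRF to the same degree as the others was not tested.

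In the gene bodies and within 10 kb of them, the 4 genes held 13 peaks, 11 of them in the si-Uc003xsl.1 libraries. Replicate 1 had 7 peaks and replicate 2 had 4, with at least 1 at each gene. Control replicate 1 had 2, both in MYO3A, and control replicate 2 had 0. Over all protein-coding genes, the same window held a peak at 23.1% of genes in si-Uc003xsl.1 replicate 1, 17.2% in replicate 2, 11.8% in control replicate 1 and 2.58% in control replicate 2. A peak in both si-Uc003xsl.1 lists occurred at 6.24% of genes, and overlapping peaks of both lists at 0.957%, that is 192 genes. Each of the 4 genes is among those 192. They were picked for a peak in both lists with earlier results of these data known, so nothing is read from that count. Overlapping peaks with no control peak occurred at 0.783% of genes, among them CAMSAP1, MTCL2 and MACF1 but not MYO3A. The mean number of peaks at the 4 genes was 5.5 ± 2.12 (SD, n = 2) after si-Uc003xsl.1 and 1 ± 1.41 (SD, n = 2) in controls.

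**Figure D1:**
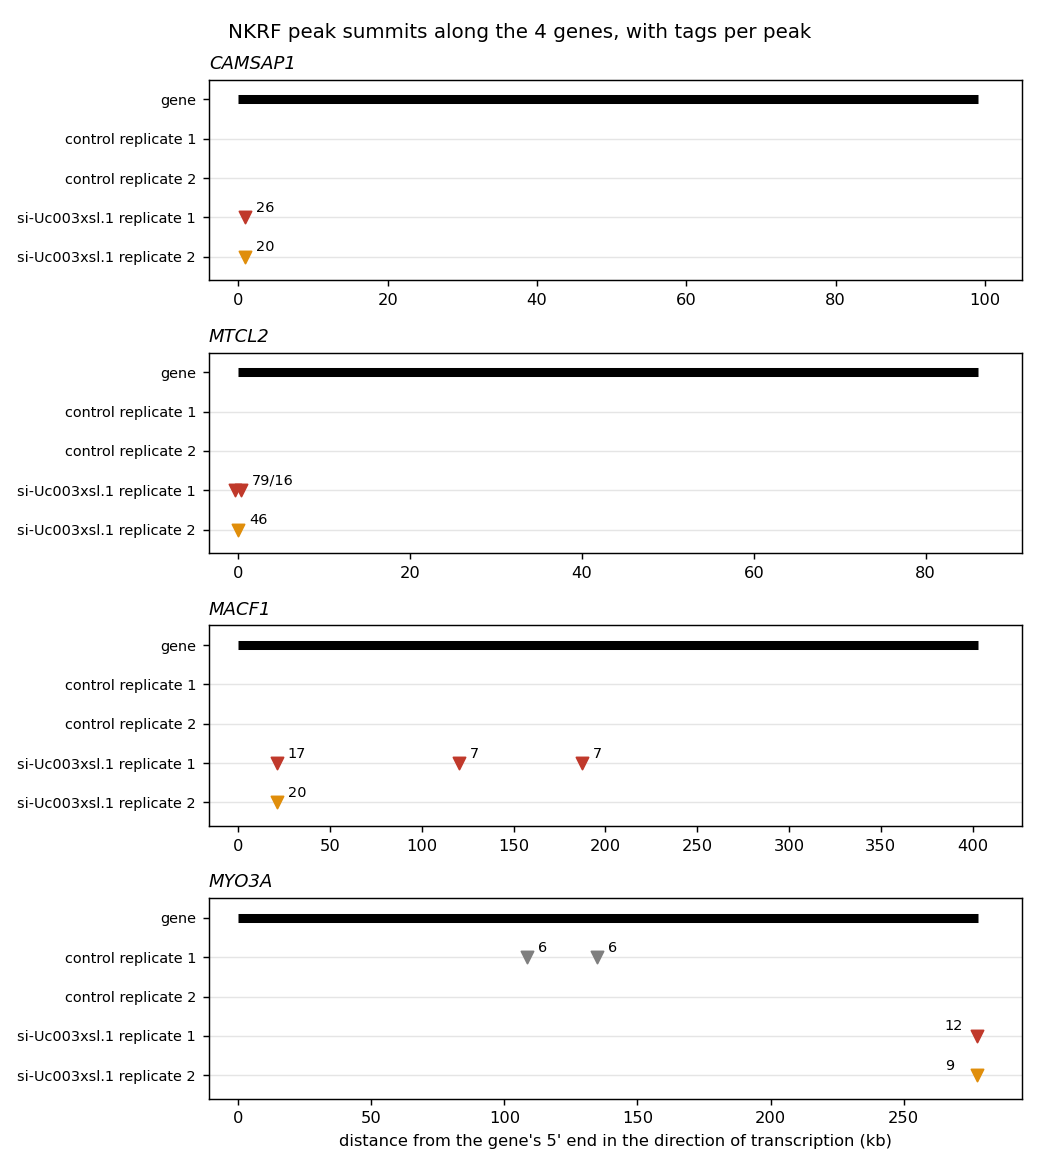
Summits of every NKRF peak at the 4 genes, one panel per gene, as distance in kb from the 5′ end in the direction of transcription (horizontal axis), with 1 row per library and the black bar marking the gene. Numbers beside the triangles are tags in the peak; the recurring peaks sit at the 5′ end of CAMSAP1 and MTCL2, 21.0 to 21.2 kb into MACF1 and at the 3′ end of MYO3A, and the 2 control peaks lie in the middle of MYO3A.

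Promoter windows from 250 bases before to 50 bases after a listed start were taken from RefSeq (GRCh38.p14) and matched all 4 genes with 6 windows. No peak at these genes overlapped any of the 6, or a listed window of another gene. Shown here, chosen after the values were seen, are the 2 windows whose start lies within 1 kb of a peak summit, because they are the listed starts nearest to NKRF signal. Capitals mark the motif GGGCGG (GC box) on either strand. The other motifs searched on both strands, the CCAAT box (CCAAT), the TATA box (TATAAA) and the NF-kB consensus, have no match in these 2 windows. The first, on the minus strand at chr9:135907497-135907796, is the only window listed for CAMSAP1. The second, on the plus strand at chr1:39204445-39204744, is the middle one of 3 listed for MACF1.
CAMSAP1: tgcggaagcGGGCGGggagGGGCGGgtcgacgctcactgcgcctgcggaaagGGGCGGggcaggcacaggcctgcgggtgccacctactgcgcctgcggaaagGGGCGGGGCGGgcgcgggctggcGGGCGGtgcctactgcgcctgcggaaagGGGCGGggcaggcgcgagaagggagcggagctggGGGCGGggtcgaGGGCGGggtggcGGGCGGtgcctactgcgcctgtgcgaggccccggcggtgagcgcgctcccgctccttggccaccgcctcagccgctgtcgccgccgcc
MACF1: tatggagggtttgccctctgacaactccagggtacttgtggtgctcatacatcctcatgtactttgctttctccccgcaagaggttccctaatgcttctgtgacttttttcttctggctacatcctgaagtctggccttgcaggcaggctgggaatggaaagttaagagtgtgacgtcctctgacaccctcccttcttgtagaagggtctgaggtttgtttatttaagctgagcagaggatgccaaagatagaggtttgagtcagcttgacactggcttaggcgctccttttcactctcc

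The windows differ widely in base composition. That of CAMSAP1 is 79% G and C, holds 41 CpG dinucleotides and has 10 GC boxes, a number that 99.8% of the 34943 listed windows stay below. That of MACF1 is 49% G and C with 3 CpG dinucleotides and 0 GC boxes. Over all listed windows the median is 58.7% G and C and 14 CpG dinucleotides. A GC box occurs in 44.9% of them, a CCAAT box in 34.6%, a TATA box in 11.6% and the NF-kB consensus in 5.9%. The listed window of MYO3A, 72.7% G and C, has 2 GC boxes and 1 match to the NF-kB consensus, but no si-Uc003xsl.1 peak lay near that start.

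CAMSAP1, on chromosome 9 (minus strand, 99.1 kb), had a single peak in each si-Uc003xsl.1 list and 0 in either control list. In replicate 1 the peak ran from 135906559 to 135906987 on GRCh38, 429 bp long with 26 tags. In replicate 2 it ran from 135906505 to 135906916, 412 bp long with 20 tags. Both summits lay inside the gene just downstream of its 5′ end, at 854 bp and 846 bp, so the libraries placed the summit 8 bp apart. Of the 160 overlapping peak pairs of the si-Uc003xsl.1 lists, 96.2% had summits farther apart than this, and the median distance was 141 bp. The peaks share 358 bp, 83.4% of the peak in replicate 1 and 86.9% of that in replicate 2. Their -log10 p of 7.13 and 6.72 exceeded that of 97.5% and 95.9% of the peaks in their own lists, which are the authors' values. Fold enrichment over input was 6.37 and 8.16, above only 15.7% and 31.8% of those peaks. Its medians over the 160 pairs were 5.64 in replicate 1 and 6 in replicate 2. By the weaker -log10 p of each pair, CAMSAP1 has rank 3 among the 160 pairs. The caller's false discovery rate was 27.1% and 22.2%, against medians of 30.8% and 11% in the lists of replicates 1 and 2. In replicate 2 each peak at the 4 genes had a higher false discovery rate than the median of its list.

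Next to CAMSAP1 starts the divergent non-coding gene CAMSAP1-DT, whose listed promoter window shares 214 bp with that of CAMSAP1. The summits lay 1141 bp and 1133 bp from its nearer end, on the far side of the CAMSAP1 start. The closest other protein-coding gene, UBAC1, was 26.3 kb away. No other peak of any library fell in the CAMSAP1 window, and the nearest control peaks were 3150 kb (replicate 1) and 2130 kb (replicate 2) away.

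MTCL2, on chromosome 20 (minus strand, 86.1 kb), carried the most tags of the 4 genes, in peaks that straddle the annotated 5′ end. Replicate 1 had 2 peaks there, separated by 4 bp. The larger ran from 36863416 to 36864452, 1037 bp long with 79 tags, and its summit was 387 bp upstream of the gene. The smaller ran from 36863171 to 36863411, 241 bp long with 16 tags and a summit 276 bp inside. Replicate 2 had 1 peak from 36863396 to 36864168, 773 bp long with 46 tags and a summit 24 bp upstream, and it overlapped both. It shared 753 bp with the larger peak, 97.4% of its own length, and 16 bp with the smaller. Both control lists had 0 peaks, the nearest being 912 kb and 2620 kb away.

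At MTCL2 the summits of the main peaks lay 363 bp apart, farther than in 80.6% of the pairs, so the region is shared but its highest point is not. The peaks were longer than 98.5% (replicate 1, larger peak) and 96.5% (replicate 2) of the peaks in their lists and had more tags than 99.4% and 97.8%. Their fold enrichment over input was low, at 4.24 and 5.13, above only 2.45% and 7.95% of peaks. The medians over all overlapping pairs, 5.64 and 6, were closer to these values. The -log10 p was 5.85 and 6.58, and 4.25 for the smaller peak, the weakest of the 11 si-Uc003xsl.1 peaks at these genes. In the same order, the caller's false discovery rate was 29.6%, 20.4% and 30.9%. The only start listed for MTCL2 in the RefSeq windows is internal, 3389 bp to 4052 bp downstream of the summits, and that window is 48% G and C with 2 CpG dinucleotides. TLDC2, the closest other protein-coding gene, had an end 12.2 to 12.9 kb from the summits.

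MACF1, on chromosome 1 (plus strand, 403 kb), had its recurring peaks inside the gene body rather than at an end. In replicate 1 the peak ran from 39104949 to 39105295, 347 bp long with 17 tags. In replicate 2 it ran from 39105062 to 39105505, 444 bp long with 20 tags. The summits were 21.0 kb and 21.2 kb downstream of the 5′ end and 159 bp apart, close to the median of all pairs. The overlap of 234 bp covered 67.4% and 52.7% of the peaks. Fold enrichment was 7.83 and 7, -log10 p 5.98 and 6.2, and the false discovery rate 28.8% and 17.4%. Neither peak lay within 20 kb of a listed MACF1 start, and the nearest other protein-coding gene, NDUFS5, was 70.6 kb away.

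The remaining MACF1 peaks were seen in replicate 1 alone and were small. A peak from 39204106 to 39204251 had 7 tags over 146 bp. Its summit was 535 bp upstream of the middle listed start, whose sequence is printed above, and the peak ended 194 bp before that window. A peak from 39271105 to 39271264 had 7 tags over 160 bp and lay 187 kb into the gene, 66444 bp past the same start. Near the third listed start, in a window of 77% G and C with 6 GC boxes, no library had a peak, and the closest lay 137559 bp from that window. Both control lists had 0 peaks at MACF1, and their nearest to the recurring region were 253 kb and 990 kb away.

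MYO3A, on chromosome 10 (plus strand, 278 kb), differed from the other genes in that its recurring peaks sat at the 3′ end and that a control list also held peaks in it. In si-Uc003xsl.1 replicate 1 the peak ran from 26211886 to 26212201, 316 bp long with 12 tags. In replicate 2 it ran from 26211948 to 26212136, 189 bp long with 9 tags, wholly inside the first. The summits were 603 bp and 533 bp before the 3′ end of the gene, 70 bp apart. The next gene, GAD2, which encodes a glutamate decarboxylase, had its nearer end 4443 bp and 4373 bp away. Although the tags were the fewest of the recurring regions, fold enrichment was the highest, at 8.81 and 17.1. The -log10 p was 5.83 and 7, above 91.5% and 97% of the peaks in their lists. At these peaks the caller's false discovery rate was 30.1% and 25.7%.

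Control replicate 1 had 2 MYO3A peaks, from 26042570 to 26042692 and from 26068935 to 26069054, 123 bp and 120 bp long with 6 tags each. They lay 108 kb and 135 kb into the gene and did not overlap the si-Uc003xsl.1 peaks. The smallest count in that list is 6 tags, and without peaks at that count the control lists held 0 peaks at any of the 4 genes. Control replicate 2 had 0 peaks at MYO3A.

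**Figure D2:**
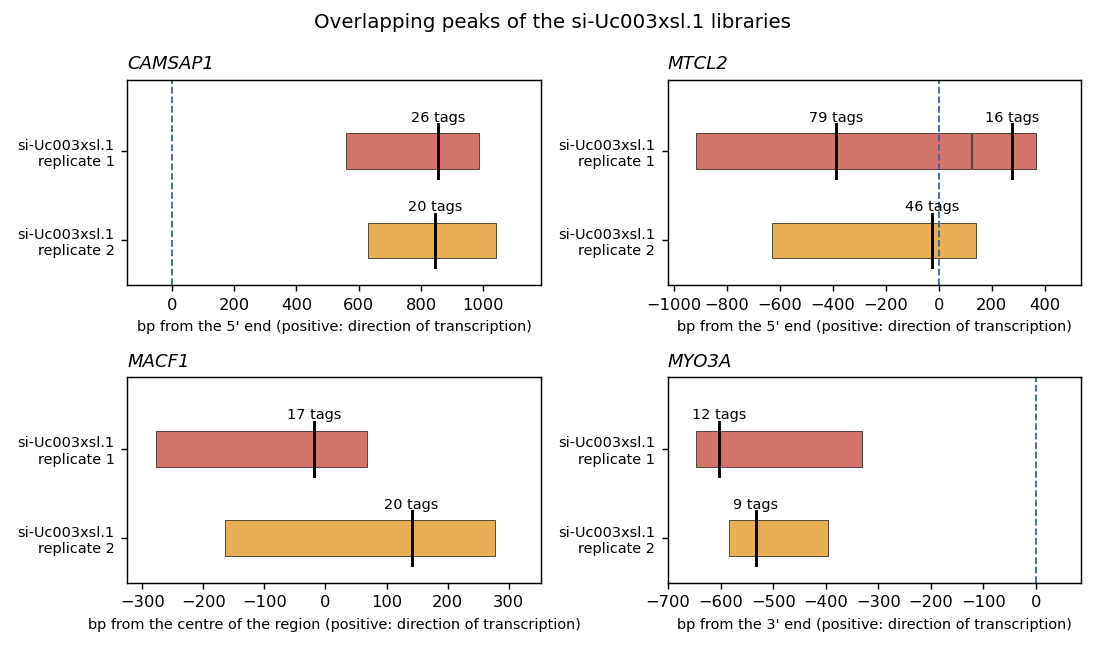
Overlapping peaks of the si-Uc003xsl.1 libraries at each gene (boxes, 1 row per library), with the summit as a black line, in bp from the 5′ end (CAMSAP1, MTCL2), the 3′ end (MYO3A) or the centre of the region (MACF1), and the dashed line marking the gene end. The summits coincide within 8 bp at CAMSAP1 and lie 363 bp apart for the main peaks of MTCL2.

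Tags at the recurring regions were compared between the si-Uc003xsl.1 libraries after scaling to filtered tags, with intervals that cover counting error only. CAMSAP1 had 1.38 tags per 1000000 filtered tags in replicate 1 and 1.76 in replicate 2, a ratio of 1.28 (exact 95% interval 0.677 to 2.38). MTCL2, with its 2 peaks of replicate 1 summed to 95 tags, had scaled levels of 5.03 and 4.05 (ratio 0.805, interval 0.553 to 1.16). MACF1 had 0.9 and 1.76 (ratio 1.96, interval 0.973 to 3.97), and MYO3A had 0.635 and 0.792 (ratio 1.25, interval 0.464 to 3.22). All 4 intervals include equal levels, and since peak boundaries differ between the libraries, lengths contribute to these ratios. In both libraries MTCL2 had the most tags per 1000000 filtered tags and MYO3A the fewest. Per kb of peak the order was much flatter, from 38 tags per kb at MYO3A in replicate 1 to 76.2 in the larger MTCL2 peak.

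**Figure D3:**
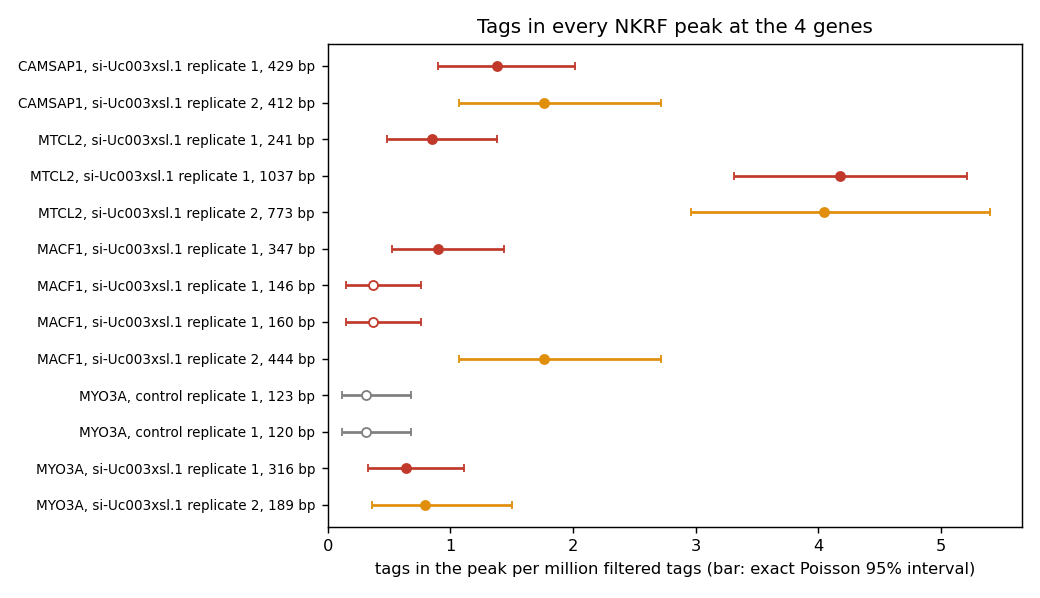
Tags per 1000000 filtered tags (horizontal axis) in each of the 13 peaks at the 4 genes, labelled by gene, library and peak length, with exact Poisson 95% intervals as bars. Filled points are peaks that overlap a peak of the other si-Uc003xsl.1 list and open points are those that do not; MTCL2 stands highest, and the open points are the lowest.

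By place in the gene, the 4 regions covered 3 kinds of position. Of 153 overlapping pairs on chromosomes with listed starts, 76 (49.7%) had both summits within 1 kb of the 5′ end of a protein-coding gene, as at CAMSAP1 and MTCL2. A further 61 (39.9%) did not have both summits within 1 kb of protein-coding gene ends of the same kind (5′, 3′ or strand unknown). MACF1 is among them, with both summits at least 21 kb from any such end. Only 2 (1.31%) had both summits within 1 kb of a 3′ end, and MYO3A was the 1 of these not also near a 5′ end. For 15 pairs the gene end had no strand in the table. Strand was known for 82% of protein-coding genes on these chromosomes and for 83.7% of the pairs near an end.

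Other cytoskeleton genes also had peaks after si-Uc003xsl.1, but at none of 80 such genes did the peaks of both libraries overlap. Related genes were taken in 4 lists of 20 genes each: microtubule minus-end and Golgi-linked genes, plus-end and lattice-binding genes, spectraplakins with spectrins, and unconventional myosins with their partners. In si-Uc003xsl.1 replicates 1 and 2, 28 (35%) and 27 (33.8%) of these 80 genes had a peak in the body or within 10 kb. In control replicates 1 and 2 it was 14 (17.5%) and 6 (7.5%). The 80 genes are long, with a median of 104 kb against 24.1 kb for all protein-coding genes, and 49 of them are at least 80 kb. Among all 4185 protein-coding genes of at least 80 kb, 42.9% and 29.5% had a peak in the si-Uc003xsl.1 libraries and 34.1% and 7.69% in the controls, so for long genes control replicate 1 lay above si-Uc003xsl.1 replicate 2. Of the 49 list genes of at least 80 kb, 42.9% had a peak in each si-Uc003xsl.1 library, against 24.5% and 6.12% in the controls. The part of gene length in these shares was not tested.

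Both si-Uc003xsl.1 lists had a peak at 12 of the 80 genes (15%, against 6.24% of all protein-coding genes). Among those of at least 80 kb it was 11 of 49 (22.4%, against 16.3% of all such genes), a difference that was not tested. At 0 of the 80 did these peaks overlap. Overlapping peaks occurred at 0.957% of all genes and 1.43% of long genes, so a count of 0 in 80 is close to the background. Among the 12 were AKAP9 of the minus-end genes, CLIP2 and MAP7 of the plus-end and lattice genes, SPTAN1 and SPTBN1 of the spectrins, and MYO9B, MYO10 and ESPN of the myosins and their partners.

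**Figure D4:**
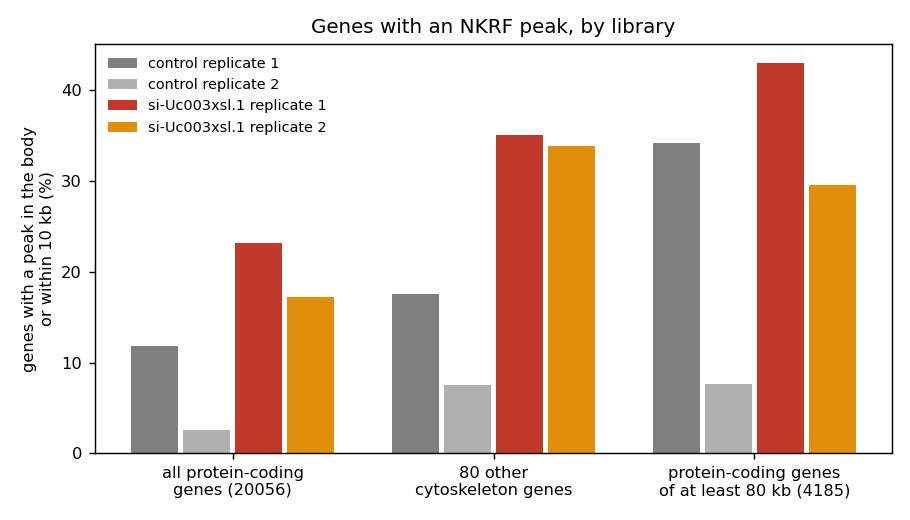
Percent of genes with an NKRF peak in the body or within 10 kb (vertical axis) in each of the 4 libraries (bars), for all protein-coding genes, the 80 other cytoskeleton genes and protein-coding genes of at least 80 kb. The 80 genes stand at 35% and 33.8% after si-Uc003xsl.1, above all genes, and among long genes control replicate 1 (34.1%) exceeds si-Uc003xsl.1 replicate 2 (29.5%).

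In individual genes of these lists, a peak at the 5′ end in 1 si-Uc003xsl.1 library came with a distant peak or none in the other. CLIP2, which encodes a microtubule plus-end linker, had 34 tags over 638 bp with the summit 52 bp inside its 5′ end in replicate 1, but in replicate 2 its only peak had 7 tags and lay 58.2 kb into the gene. SPTAN1, the gene of non-erythroid alpha spectrin, had 34 tags over 668 bp 256 bp inside its 5′ end in replicate 2. Its peak in replicate 1 had 14 tags and lay 8985 bp from that end, outside the gene. MAPRE2, which encodes an end-binding protein of growing microtubules, had 36 tags 157 bp inside its 5′ end in replicate 1, with a -log10 p of 9.35, and 0 peaks in replicate 2. Of the 66 list genes with a known strand, 4 had a summit within 1 kb of the 5′ end in each si-Uc003xsl.1 library (6.06%), and 0 had one in both. Over all 15843 protein-coding genes of known strand the shares were 5.84% in replicate 1, 4.7% in replicate 2 and 0.549% in both, so the list genes were close to the background. The list genes were CLIP2, MAP7D1, MAPRE2 and MYO9B in replicate 1 and ACTN1, MAP7, MTCL1 and SPTAN1 in replicate 2.

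The closest relatives of the 4 genes, looked at after the values were seen, had no overlapping peaks of the si-Uc003xsl.1 lists. MTCL1, the paralogue of MTCL2, had a peak in si-Uc003xsl.1 replicate 2 alone, with 46 tags over 1007 bp and its summit 345 bp from the 5′ end, just outside the gene. CAMSAP2 likewise had 1 peak in replicate 2 alone, with 27 tags over 570 bp and a summit 653 bp from a gene end. CAMSAP3 and MTCL3 had 0 peaks in all 4 libraries. DST, the other large spectraplakin gene, had 6 peaks of 6 to 8 tags in control replicate 1 and 3 of 6 to 8 tags in si-Uc003xsl.1 replicate 2, all far inside the gene except 1 that lay 6.85 kb beyond its 3′ end. MYO3B, the other class III myosin gene, had 2 peaks of 6 and 7 tags in control replicate 1 and 1 of 6 tags in si-Uc003xsl.1 replicate 2, at 72.1 kb to 167 kb from the nearer end. Long genes of this kind therefore also held peaks of the smallest counts in a control library.

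Over all protein-coding genes, the mean share with a peak in the body or within 10 kb was 20.1% ± 4.21 (SD, n = 2) after si-Uc003xsl.1 and 7.18% ± 6.5 (SD, n = 2) in controls. The difference of 12.96 percentage points gave a two-sided exact permutation p of 0.333, which is the lowest value possible with 2 libraries against 2; this design cannot reach 0.05. Without control replicate 2 the difference was 8.359 points (exact permutation p = 0.667). At a stricter threshold of -log10 p of at least 6 it was 1.027 points (exact permutation p = 0.667). The shares there were 2.73% and 2.11% after si-Uc003xsl.1 and 0.558% and 2.23% in controls, each in replicate order. Of the 4 genes only CAMSAP1 then had overlapping peaks. With every list reduced to its 902 strongest peaks, all 4 genes still had them.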

How the data were processed

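NKRF ChIP-seq peak lists of 4 libraries were used; input libraries entered only through the authors' calls. Bowtie2 and GRCh38.p11 are named per the submitters' processing notes. Peaks were called per library against 1 input, not on pooled replicates: with MACS 1.4.2 (p of 1e-04) or, for control replicate 2, MACS 2.1.1.20160309 (q of 0.05), per the file headers. Tag counts per peak were deposited without normalization. The score (a multiple of -log10 p), the fold enrichment ratio over input and the false discovery rate in percent are the authors' values, per the file headers. The authors deposited the pileup signal at the summit, -log10 p and -log10 q for the MACS 2.1.1.20160309 list. A stricter threshold and fewer tags shorten a list, so lists are not directly comparable.

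Gene bodies came from a RefSeq table and strands from its promoter table, both GRCh38.p14; patch releases keep primary chromosome coordinates, and no gene coordinate is printed. A MACS 1.4.2 summit was read as a 1-based offset in the peak. Peaks overlapped when they shared at least 1 bp. Python 3.11.15, pandas 2.3.3 and scipy 1.17.1 were used. Counting functions were tested on simulated data. Tag intervals are exact Poisson 95% intervals, and ratios use exact binomial (Clopper-Pearson) intervals. Both cover counting error only.

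The 4 genes and the 4 lists of 20 genes were chosen with earlier results of these data known. Named besides the 4 were up to 12 list genes with a peak in both si-Uc003xsl.1 lists or a control list, in order of summed tags, as far as the text needs them; the further list genes AKAP9, SPTBN1, MAP7D1, ACTN1, MTCL1, MTCL3, CAMSAP2, CAMSAP3 and MYO3B fall outside this rule and were chosen after their values were seen. The rule also covered any protein-coding gene with an end nearer to a summit than the member's own (0 found). Motif windows were to be those covered by a peak; none was, so the nearest were shown. Depth ranged from 8250475 to 19335431 filtered tags.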

Additional observations from a re-analysis of the deposited data

How the results depend on the processing

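Counts at the 4 genes follow from how these genes were picked, so their direction under other settings is no support. Of 24 recomputed group differences over the 80 genes and over all genes, 21 counted as kept. Over the 80 genes, this meant the same direction and a shift below the replicate spread. Over all genes it meant the same direction only, whatever the size of the shift. The other 3, over the 80 genes, moved further and 0 reversed. With 2 libraries per group, leaving out a library cannot shift the difference over the 80 genes beyond that spread, and a replicate block returns the same value. The count of 21 is therefore no measure of stability. The test over all genes cannot pass 0.05 in this design. The mean number of the 4 genes with a peak, si-Uc003xsl.1 minus control, was 3.5. It was 3 with gene ends and 1 kb around them, 2.5 at -log10 p of at least 6, 4 in lists of equal length and 4 without peaks at the smallest tag count, an alternative chosen after seeing the data. The difference in the mean number of peaks at these genes, 4.5, fell to 2.5 at -log10 p of at least 6. There, overlapping peaks remained at 1 gene, CAMSAP1. Its peak of 26 tags was the only 1 left at these genes in si-Uc003xsl.1 replicate 1, where the median without this threshold was 16. Within gene ends and 1 kb around them, overlapping peaks were at 3 genes (not MACF1), and with summits within 200 bp at 3 (not MTCL2). The difference in the share of the other 80 cytoskeleton genes, 21.88 points, was 7.5 at gene ends, 3.75 at -log10 p of at least 6 and 3.125 in equal lists. Over all protein-coding genes the same settings gave 5.938, 1.027 and 1.942 points, against 12.96. In equal lists, control replicate 2 and both si-Uc003xsl.1 libraries each had a peak at 7.5% of the 80 genes, and control replicate 1 at 1.25%. At -log10 p of at least 6 the shares of the 80 genes were 6.25% and 7.5% after si-Uc003xsl.1. In control replicates 1 and 2 they were 0% and 6.25%. The stricter settings keep fewer peaks by construction, but not evenly. At -log10 p of at least 6, control replicates 1 and 2 kept 229 and 774 peaks and the si-Uc003xsl.1 libraries 526 and 431. Equal lists kept all 902 peaks of control replicate 2. The cause of the shifts was not tested.

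Leaving out each library in turn gave differences, si-Uc003xsl.1 minus control, of 3 to 4 genes with a peak and 3 to 6 peaks. For the 80 genes they were 16.88 to 26.88 points, and for all genes 8.359 (without control replicate 2) to 17.56 points. The difference in peaks was 3 without si-Uc003xsl.1 replicate 1, the library with the 2 single MACF1 peaks. With a replicate block, the mean of the differences within replicate numbers, the values were the same (3.5, 4.5, 21.88 and 12.96), since a balanced design gives the same mean; no test was added. Called lists do not show signal below the callers' thresholds, so at this depth a missing control peak means not detected.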
